A study of Mus musculus with 6 samples.

Results

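The genes described here encode the translation initiation and elongation factors of the mouse, the proteins that start and extend polypeptide chains on cytosolic ribosomes, and some enzymes named after the factors they modify. They were chosen by name: every listed gene whose symbol begins with Eif or Eef followed by a digit was taken, with the eIF4E-binding proteins left out. This gave 63 of the 13363 listed genes, 51 named for initiation and 12 for elongation, of which 9 are kinases or methyltransferases of factors. The rule itself uses gene names and no measured value.

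The muscles were the gastrocnemius of Balb/c mice, 3 bearing a C26 tumor and 3 controls without one. C26 is a colon carcinoma line of the same mouse strain whose tumors cause cachexia, a wasting of muscle and fat. The mice were males, 6 weeks old when bought and kept for 1 week before use, and those of the C26 group then had 500000 tumor cells injected under the skin of the flank. RNA depleted of rRNA was sequenced in single reads of 50 bases, and no gene was altered in either group.

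Translation of most mRNAs begins when eIF4E binds the cap, the scaffold eIF4G joins it to the helicase eIF4A, and eIF3 holds the small ribosomal subunit. eIF2 brings the initiator tRNA as a GTP complex, and eIF2B reloads eIF2 with GTP unless the alpha subunit of eIF2 has been phosphorylated by a stress kinase. After the subunits join, eEF1A delivers each aminoacyl-tRNA and eEF2 moves the ribosome by a codon. In muscle these steps are controlled by mTORC1, which releases eIF4E from its binding proteins, and are known as points at which protein synthesis is held back in wasting.

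Values below are normalised TPM, that is, FPKM rescaled to a constant sum per sample and divided by a TMM factor, so levels are per transcript length. Values of the C26 muscles are given in the order of replicates 1, 2 and 3, followed by those of the control muscles in the same order. Fold changes are C26 minus Control on the log2(TPM + 1) scale, with the SE. The adjusted p is that of limma, adjusted by Benjamini-Hochberg over the whole table, and a gene was called at an adjusted p under 0.05. A group is a set of 3 muscles, and p-values measure only the spread between these muscles.

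All 10 fibre markers, among them Acta1, Ckm and Tnnt3, were abundant in every muscle, and their summed level was 140300, 116800 and 184700 in C26 against 191600, 211300 and 188700 in control muscles, with Des higher and Mylpf lower. Fat markers summed to between 475 and 684 in C26 and between 777 and 6180 in control muscles, with 6 of 7 genes lower. Fibroblast markers summed to between 281 and 418 against between 569 and 781, with 5 of 7 lower. Endothelial markers lay between 94.3 and 95.8 against between 103 and 145, with 2 of 7 lower, and the 3 listed of 4 erythroid markers were all higher, at 628 to 1300 against 278 to 434. Macrophage markers were uneven, at 56.5 to 480 against 48.5 to 100, with Cd68 at 422 in C26 replicate 2, and none of 7 was called. A library stood apart in each group. Of 8 B and T cell markers 2 were listed, and they summed to 209 in Control replicate 3, where Cd79b was at 194, and to at most 1.61 elsewhere. C26 replicate 3 had Mb at 9288 and Myh1 at 4838 against 127 to 488 and 435 to 530 in the other C26 muscles. In bulk tissue, fewer cells of a type and less RNA per cell cannot be told apart, and the part of these markers in the results below was not tested.

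Of the 63 genes, 39 were higher in C26 muscles and 2 were lower, the kinase Eif2ak2 and the methyltransferase Eef1akmt1. The other 22 were not called. Over all listed genes 19.4% were called higher and 14.5% lower, 33.8% in all. The median fold change of the 63 genes was 0.73 on the log2 scale, against -0.05 for all listed genes. Of the 51 initiation genes 36 were higher and 1 was lower, and of the 12 elongation genes 3 were higher and 1 was lower. Without the 9 modifying enzymes, of which 2 were higher and 2 were lower, the counts of higher genes were 34 of 47 and 3 of 7. The difference between initiation and elongation was not tested. Of the 39 higher genes, 23 changed by 2-fold or more and 16 by less. Only Eif3a also passed the fold criterion of 4, which 1.77% of listed genes passed upwards and 1.73% downwards.

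**Figure D1:**
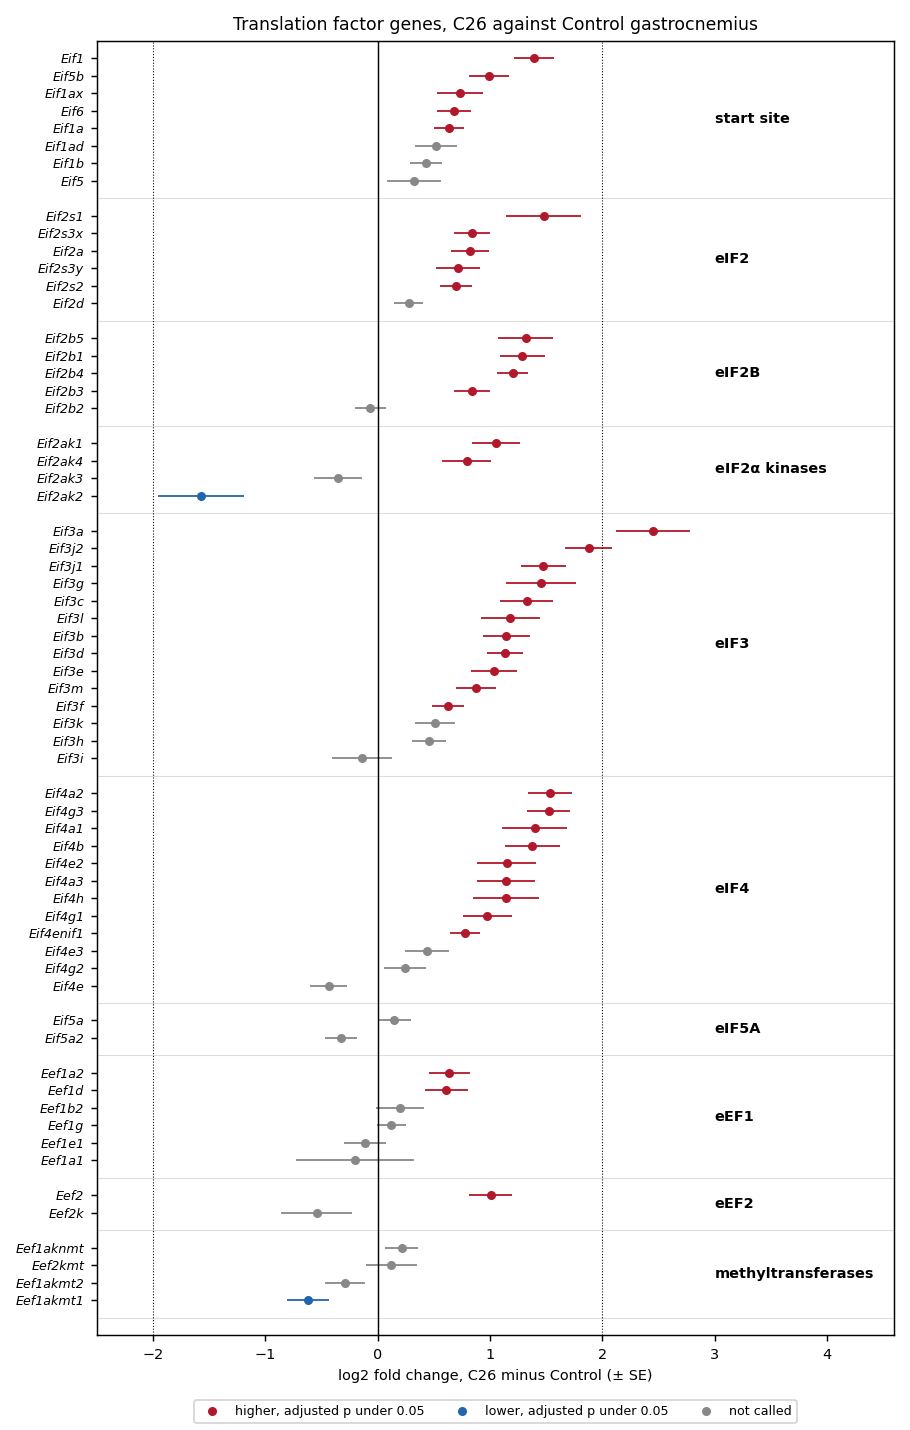
Fold change of each of the 63 translation factor genes, C26 minus Control, in log2 units on the x axis, with the SE as a bar and genes grouped by role on the y axis (n = 3 muscles per group). Dotted lines mark the fold criterion of 4. Most eIF3, eIF4, eIF2 and eIF2B genes lie to the right of 0, with Eif3a at 2.45, while Eef1a2 and Eef1d are the eEF1 genes called higher, at 0.64 and 0.61, and Eif2ak2 lies at -1.58.

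In each of the 39 higher genes all C26 muscles lay above all control muscles. Among the 22 uncalled genes the groups were also apart upwards in 6 and downwards in 2, and they overlapped in 14. Over all listed genes the groups were apart upwards in 27% and downwards in 26.5%, 53.5% in all. C26 replicate 3 had the lowest C26 value in all 39 higher genes, and in 1859 of the 2590 genes called higher in the whole table (71.8%). Set against the control mean of each gene, the median of the 63 genes was 0.88, 0.87 and 0.55 log2 units in C26 replicates 1, 2 and 3, against -0.07, 0.07 and -0.02 in the controls. In the fibre marker sum, too, C26 replicate 3 was the nearest of the C26 muscles to the controls.

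**Figure D2:**
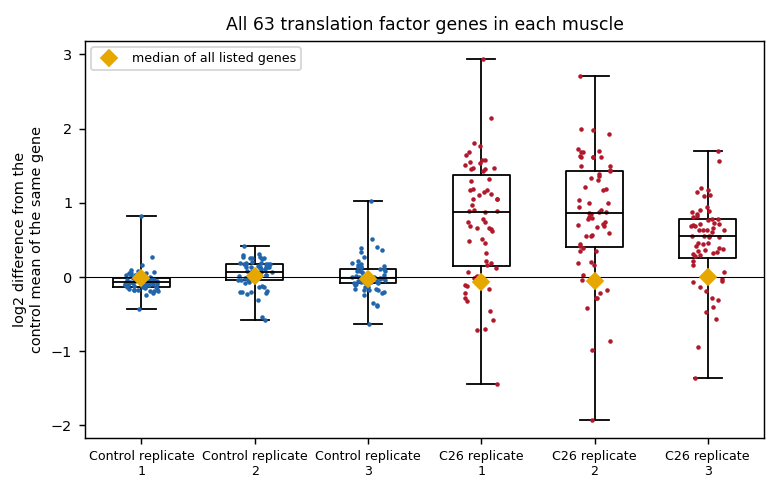
Log2 difference of each of the 63 genes from its own control mean (y axis) in each of the 6 muscles (x axis). Each dot is a gene, boxes show the median and quartiles, whiskers reach the lowest and highest gene, and diamonds mark the median of all listed genes. The C26 medians of 0.88, 0.87 and 0.55 stand above diamonds that lie near 0, and C26 replicate 3 has the smallest shift.

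The count of higher genes depended on single muscles. It was 15 without C26 replicate 1, 25 without C26 replicate 2 and 15 without Control replicate 1, while the share of all listed genes called higher fell to 8.46%, 11.4% and 8.62%. It was 43 without C26 replicate 3, 32 without Control replicate 2 and 35 without Control replicate 3, with 24.8%, 15% and 16.7% of all listed genes. In all 6 such fits 15 genes stayed called: Eif3a, Eif3b, Eif3c, Eif3d, Eif3j1, Eif3j2, Eif4a2, Eif4b, Eif4g3, Eif4enif1, Eif2b1, Eif2b4, Eif2b5, Eif1 and Eif5b. How many of all listed genes stayed called in all 6 was not counted, so this number has no background.

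**Figure D3:**
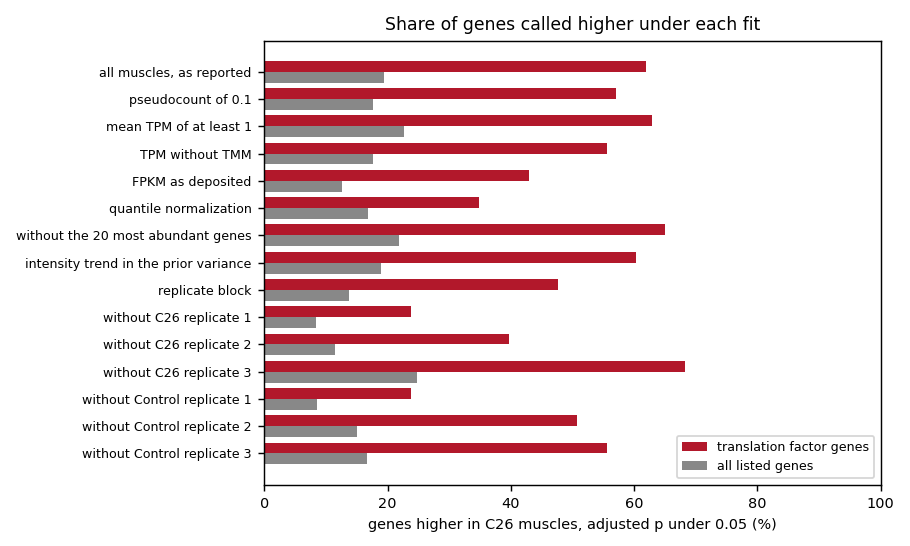
Share of genes called higher in C26 muscles (x axis, percent) under each fit (y axis), for the 63 translation factor genes (62 with the filter on TPM) and for all listed genes. The share of factor genes is 61.9% with all muscles as reported against 19.4% of listed genes, and falls to 23.8% against 8.46% without C26 replicate 1.

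The 63 genes together took 1.88%, 2.06% and 1.21% of all TPM in C26 muscles and 0.87%, 0.912% and 1.01% in control muscles. The groups did not overlap, and the difference was 0.787 percentage points (exact permutation test, two-sided, p = 0.1, the smallest that 3 against 3 allows). Without the 20 most abundant genes in the total, the shares were 2.74%, 2.81% and 1.97% against 1.62%, 1.71% and 1.88%, and the ratio of the group means fell from 1.85 to 1.44. None of the 20 most abundant genes of the table was among them. In control muscles the highest levels were those of Eef1a2 (1562 ± 241, SD, n = 3), Eef2 (1060 ± 141), Eif1 (1011 ± 77.9) and Eef1a1 (940 ± 629). The control values of Eef1a2 lay above those of Eef2 in all muscles, whereas Eef2, Eif1 and Eef1a1 differed by less than their SDs. In C26 muscles Eif1 stood first with 2679 ± 474, followed by Eef1a2 (2429 ± 361) and Eef2 (2143 ± 392), each within the SD of its neighbour in this order, while Eif1 and Eef2 differed by more than their SDs. The lowest was Eif5a2, at 0.637 in control muscles.

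Promoters of a few genes are shown here because 39 of the 63 genes were higher, whereas Eif2ak2, which encodes the interferon-induced kinase PKR, was lower. RefSeq windows of GRCm38.p6 from 250 bases before to 50 bases after the start were found for 51 of the 63 genes. A gene was counted once if any of its windows held a motif. The E-box CACGTG, a palindrome bound by Myc and related factors, was present in 13 of the 51 genes (25.5%). The share was 11.6% of the 10600 listed genes with a window and 8.09% of all 27025 genes with one. The E-box was in 6 of the 33 higher genes with a window and in 7 of the other 18. A pattern of GAAA, any 2 bases and GAAA again resembles the interferon-stimulated response element. It was in 4 of the 51 genes (7.84%, against 3.61% of listed genes). These were Eif2ak2, which was lower, and Eif2s1, Eif2s3x and Eif3a, which were higher. The FoxO site TGTTTAC was in 1 of the 51 genes (1.96%, against 3.13%) and the CCAAT box in 17 (33.3%, against 42.8%). Both strands were searched, and none of these motifs contains another. A match is only a run of letters. In the stretches below, written 5′ to 3′ on the strand of the gene, capitals mark the motif: both GAAA and the bases between them in Eif2ak2, and CACGTG in the rest.
Eif2ak2, chr17:78882543-78882614, minus strand: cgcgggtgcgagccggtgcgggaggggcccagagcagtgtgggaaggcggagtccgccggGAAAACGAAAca
Eif3a, chr19:60790664-60790701, minus strand: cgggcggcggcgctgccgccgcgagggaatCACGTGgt
Eif4g1, chr16:20672643-20672708, plus strand: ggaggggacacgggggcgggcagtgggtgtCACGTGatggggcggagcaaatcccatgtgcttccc
Eif4a1, chr11:69672577-69672642, minus strand: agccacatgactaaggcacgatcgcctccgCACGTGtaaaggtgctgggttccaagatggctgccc
Eif4e, chr3:138527018-138527075, plus strand: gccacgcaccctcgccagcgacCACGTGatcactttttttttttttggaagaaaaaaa
Eef2, chr10:81176558-81176623, plus strand: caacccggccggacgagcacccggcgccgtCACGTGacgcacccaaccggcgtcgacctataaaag
The printed stretches with an E-box are from genes that were higher in C26 muscles (Eif3a, Eif4g1, Eif4a1, Eef2) and from Eif4e, which was not. Of the 7 genes with an E-box that were not higher, Eif4e alone is printed, so the stretches do not mirror the counts above.

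The eIF3 complex, the largest initiation factor, had 11 of 14 genes higher and none lower, with a median of 1.14 on the log2 scale. Its summed level was 3424, 3658 and 2388 in C26 muscles and 1354, 1502 and 1540 in control muscles. Eif3a encodes the large subunit on which the others assemble. Its level was 395, 338 and 167 in C26 muscles and 44.3, 57.4 and 50.9 in control muscles. The lowest C26 value was thus well above the highest control value, though C26 replicate 3 stood under the other C26 muscles. The change of Eif3a was 2.45 ± 0.33 (adjusted p = 0.00513), the largest estimate among the 63.

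Eif3j1 and Eif3j2 are near-identical genes for the loosely bound eIF3j subunit, and 90.8% of the 50-base windows of the Eif3j2 transcript also occur in Eif3j1, so that their reads can be split either way. Eif3j2 stood at 403, 349 and 269 against 86.3, 109.8 and 78.6 (1.88 ± 0.21, adjusted p = 0.00338). Eif3j1 stood at 83.3, 91.2 and 61.7 against 25.2, 32.7 and 24.8 (1.48 ± 0.20, adjusted p = 0.00523). Their sum was 487, 440 and 331 against 112, 142 and 103, with no overlap and a ratio of means of 3.52. The sum also depends on the split, because levels are per transcript length and the transcripts have 5413 (Eif3j1) and 2379 (Eif3j2) bases.

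Eif3g, an RNA-binding subunit, was at 363, 486 and 209 against 109.8, 117 and 136 (1.46 ± 0.31, adjusted p = 0.0158). Eif3c, of the core of the complex, was at 233, 251 and 147 against 71.8, 93.0 and 80.3 (1.33 ± 0.24, adjusted p = 0.0097). Eif3l was at 135, 169 and 85.2 against 52.0, 61.4 and 50.6 (1.18 ± 0.26, adjusted p = 0.0178). In all 3 genes the groups were apart, and C26 replicate 3 lay between the controls and the other C26 muscles. Eif3b, Eif3d, Eif3e, Eif3m and Eif3f were higher by 1.15, 1.13, 1.04, 0.88 and 0.63 log2 units. Eif3k (0.51, adjusted p = 0.0654) and Eif3h (0.46, adjusted p = 0.0546) were not called although their groups did not overlap. Both were called higher without C26 replicate 3 (0.0396 and 0.0221). Eif3k was also called without Control replicate 3 (0.0315), and Eif3h without the 20 most abundant genes (0.0485). Eif3i, a WD-repeat subunit, was -0.14 (adjusted p = 0.698) and overlapped. Without C26 replicate 1 or without Control replicate 1, Eif3g (adjusted p = 0.0634 and 0.0629) and Eif3l (0.07 and 0.067) lost their calls, as did Eif3e, Eif3m and Eif3f, the last 2 also without C26 replicate 2 (0.052 and 0.065) and Eif3f without Control replicate 2 (0.0542). With quantile normalization Eif3g (0.0501), Eif3l (0.0513), Eif3e, Eif3m and Eif3f also lost theirs, and Eif3f did so with FPKM as deposited (0.104).

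**Figure D4:**
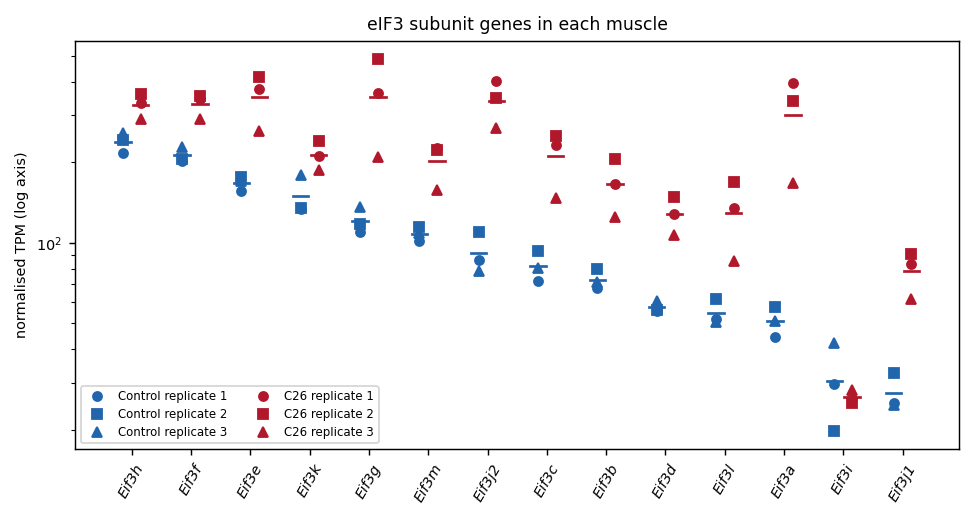
Normalised TPM (log axis) of the 14 eIF3 genes in each of the 3 control (blue) and 3 C26 (red) muscles, ordered by control mean, with bars at group means. The red points of Eif3a, Eif3j2 and Eif3c stand well above the blue ones, with C26 replicate 3 the lowest red point, and Eif3i is the gene whose groups overlap.

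Of the 12 genes of the cap-binding and helicase group, 9 were higher, with a median of 1.14. Their summed level was 2768, 2643 and 1900 in C26 muscles and 1009, 1195 and 1020 in control muscles. The helicase genes Eif4a1 and Eif4a2 unwind the leader of the mRNA, Eif4a2 being the main form in muscle here. Eif4a2 stood at 976, 858 and 631 against 257, 305 and 276 (1.53 ± 0.20, adjusted p = 0.00457). Eif4a1 stood at 303, 319 and 170 against 87.1, 83.6 and 121 (1.40 ± 0.29, adjusted p = 0.0143). Both rose, with groups apart. The share of Eif4a1 in their sum was 24.0 ± 2.97% in C26 and 25.7 ± 4.49% in control muscles, and overlapped (exact permutation test, p = 0.6, where 0.1 is the smallest possible). Of the Eif4a1 transcript, 65.3% of 50-base windows also occur elsewhere, mostly in a pseudogene. Eif4a3, the related helicase of the exon junction complex, was at 152, 147 and 84.9 against 49.9, 52.8 and 64.9 (1.14 ± 0.26, adjusted p = 0.0183). Eif4b, which stimulates the helicase, was at 357, 378 and 234 against 102, 150.4 and 115 (1.38 ± 0.24, adjusted p = 0.00944). The groups were apart in both.

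The eIF4E family did not move as one. Eif4e, the main cap-binding protein, was at 52.8, 59.4 and 63.7 in C26 muscles and 82.2, 90.7 and 67.2 in control muscles. Every C26 value was below every control value, but the change of -0.44 ± 0.17 was not called (adjusted p = 0.0828). It was called lower with FPKM as deposited (-0.64, adjusted p = 0.0158), with quantile normalization (-0.84, 0.0126) and without Control replicate 3 (-0.55, 0.041). Eif4e2, a homologue known as a repressor that competes for caps, went the other way, at 96.7, 95.9 and 51.3 against 32.4, 37.6 and 34.3 (1.15 ± 0.26, adjusted p = 0.0199). Eif4e3 was at 43.4, 35.3 and 34.1 against 30.8, 31.2 and 21.3 (0.44 ± 0.20, adjusted p = 0.129), again apart but not called.

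Shares within the family do not depend on scaling between samples. Eif4e made up 27.4%, 31.2% and 42.7% of the summed family in C26 muscles and 56.5%, 56.9% and 54.7% in control muscles. Eif4e2 made up 50.1%, 50.3% and 34.4% against 22.3%, 23.6% and 28.0%. In C26 replicates 1 and 2 Eif4e2 was thus the most abundant of the 3, and in every control muscle Eif4e was. Neither share overlapped between groups, with differences of -22.3 and 20.3 percentage points (exact permutation test, two-sided, p = 0.1, adjusted p = 0.18 over 9 shares, and 0.1 is the smallest p possible).

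The 3 eIF4G scaffolds also differed among themselves. Eif4g1, the main scaffold, was at 290.2, 282 and 259 against 138, 187 and 106 (0.98 ± 0.22, adjusted p = 0.0185). Eif4g3 was at 141, 140.5 and 101 against 42.1, 50.02 and 38.2 (1.52 ± 0.19, adjusted p = 0.00439). Both rose with no overlap. Eif4g2, or DAP5, which lacks the eIF4E-binding part and serves cap-independent initiation, was at 116, 105 and 149.7 against 103, 116 and 91.3 (0.24 ± 0.18, adjusted p = 0.331), and its groups overlapped. Its share of the 3 scaffolds was 21.2%, 19.9% and 29.4% in C26 muscles against 36.3%, 32.9% and 38.7%, and that of Eif4g3 was 25.8%, 26.7% and 19.8% against 14.9%, 14.1% and 16.2%. Both shares were apart between the groups, at the smallest possible p of 0.1 (adjusted p = 0.18). Eif4h and the eIF4E transporter Eif4enif1 were higher by 1.14 and 0.77.

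In the cap-binding group, calls were lost without C26 replicate 1 and without Control replicate 1 by Eif4a1 (adjusted p = 0.0597 and 0.0591), Eif4e2 (0.0752 and 0.0735), Eif4a3 (0.0708 and 0.0712), Eif4g1 (0.0719 and 0.0673) and Eif4h. Without C26 replicate 2, Eif4e2 (0.0663), Eif4a3 (0.0629), Eif4g1 (0.0601) and Eif4h lost theirs, and with quantile normalization these 4 did too (0.058, 0.0748, 0.0635 and 0.0829). Those of Eif4a3 (0.0539) and Eif4h (0.0641) were lost without Control replicate 2, that of Eif4h without Control replicate 3 (0.0573), and those of Eif4e2 (0.054), Eif4a3 (0.0577) and Eif4h (0.0724) with FPKM as deposited.

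**Figure D5:**
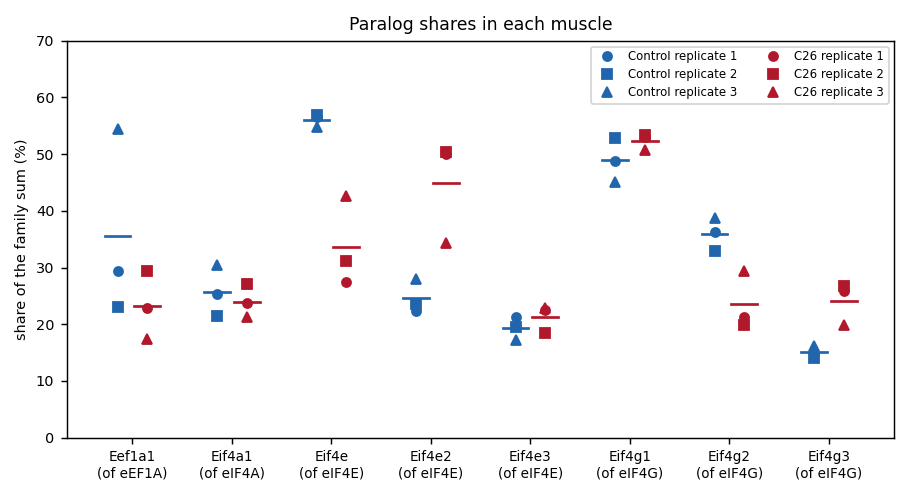
Share of each paralog in the summed level of its family (y axis, percent) in each muscle, with bars at group means (n = 3 per group). Eif4e falls from 56.0% to 33.7% on average and Eif4e2 goes from 24.6% to 44.9%, while Eif4a1 and Eef1a1 overlap between groups and Eef1a1 is at 54.5% in Control replicate 3.

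eIF2, which carries the initiator tRNA, and its relatives had 5 of 6 genes higher. Eif2s1, for the alpha subunit that stress kinases phosphorylate, was at 69.0, 80.6 and 32.2 against 19.6, 20.8 and 18.6 (1.48 ± 0.34, adjusted p = 0.0189). Eif2s2, for the beta subunit, was at 222, 259 and 206 against 139, 142 and 141 (0.70 ± 0.14, adjusted p = 0.0135). Eif2s1 had the wider spread, with C26 replicate 3 closer to the controls than to the other C26 muscles. The gamma subunit is encoded on both sex chromosomes. The X-linked Eif2s3x was at 64.9, 69.5 and 54.0 against 31.9, 39.1 and 32.9 (0.84 ± 0.16, adjusted p = 0.0117). The Y-linked Eif2s3y was at 79.5, 75.1 and 73.2 against 44.2, 36.6 and 59.5 (0.72 ± 0.20, adjusted p = 0.034). Both rose, and their sum was 144, 145 and 127 against 76.0, 75.7 and 92.3. Eif2a, an alternative carrier of initiator tRNA, was at 60.1, 52.7 and 49.5 against 26.4, 36.2 and 28.6 (0.82 ± 0.17, adjusted p = 0.0143). Eif2d was 0.27 (adjusted p = 0.149) with groups apart. All 5 calls were lost without C26 replicate 1 (adjusted p = 0.0744 for Eif2s1, 0.0533 for Eif2s2, 0.053 for Eif2s3x, 0.113 for Eif2s3y and 0.0615 for Eif2a) and without Control replicate 1 (0.0667, 0.0567, 0.0526, 0.106 and 0.0596). Those of Eif2s1 (0.0568) and Eif2s3y (0.0897) were also lost without C26 replicate 2, and that of Eif2s3y without Control replicate 2 (0.0787). With quantile normalization Eif2s1 alone of the 5 kept its call, and with FPKM as deposited Eif2s3y (0.15) and Eif2s2 (0.0597) lost theirs.

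eIF2B, the exchange factor of eIF2, has 5 subunits, and 4 of them rose. Eif2b5, for the catalytic epsilon subunit, was at 105, 124 and 66.8 against 36.4, 41.3 and 35.6 (1.32 ± 0.24, adjusted p = 0.0107). Eif2b1, for the regulatory alpha subunit, was at 105, 108 and 71.2 against 35.9, 41.2 and 35.7 (1.29 ± 0.20, adjusted p = 0.00682). Eif2b4, for the delta subunit, was at 129, 116 and 110.1 against 48.1, 55.6 and 48.9 (1.2 ± 0.14, adjusted p = 0.00355). All 3 held in each fit with a muscle left out and in each alternative. Eif2b3, which pairs with epsilon, was at 42.1, 41.8 and 39.4 against 19.8, 27.2 and 21.0 (0.84 ± 0.16, adjusted p = 0.0116), and lost its call without C26 replicate 1 (0.0521) or Control replicate 1 (0.0511). Eif2b2, for the beta subunit, was the exception, with overlapping groups and a difference of -0.06 (adjusted p = 0.732). With quantile normalization Eif2b2 was called lower (-0.46, adjusted p = 0.0331).

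The kinases that phosphorylate eIF2 alpha differed in direction. Eif2ak1, the kinase HRI, which senses heme shortage, was at 32.1, 37.5 and 24.1 against 13.4, 17.3 and 12.6 (1.05 ± 0.21, adjusted p = 0.0133). Eif2ak4, the amino acid sensor GCN2, was low, at 7.33, 5.39 and 3.79 against 2.55, 2.45 and 3.02 (0.79 ± 0.22, adjusted p = 0.0357). Both had groups apart. Eif2ak2, the double-stranded RNA sensor PKR whose promoter is printed above, was at 1.19, 0.565 and 1.31 against 9.52, 4.18 and 2.83, with a change of -1.58 ± 0.38 (adjusted p = 0.0233). Its C26 values were all below the controls, which spread widely among themselves. At these low values the size of the change depends on the pseudocount, and with 0.1 it was -2.22. Eif2ak3, the endoplasmic reticulum kinase PERK, was -0.35 (adjusted p = 0.24) and its groups overlapped. Eif2ak1 is also expressed in red cells, whose 3 listed markers were all higher in C26 muscles (sums of 628 to 1300 against 278 to 434). Within the C26 group their sum was highest in replicate 3, the C26 muscle with the lowest Eif2ak1. The part of red cells was not tested. Eif2ak2 lost its call without C26 replicate 1 (0.0697), without C26 replicate 2 (0.0777), without Control replicate 2 (0.0502) and with quantile normalization (0.0755). Eif2ak1 lost its call without C26 replicate 1 (0.0564) or Control replicate 1 (0.0563), and Eif2ak4 in every such fit but that without C26 replicate 3, with adjusted p between 0.0505 and 0.109, and with FPKM as deposited (0.102) or without TMM (0.0573).

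Factors of start site selection and subunit joining had 5 of 8 genes higher, and their summed level was 3315, 3687 and 2639 against 1321, 1457 and 1296. Eif1, which guards the choice of the start codon, made up most of it, at 2795, 3084 and 2157 against 981, 1099 and 952 (1.39 ± 0.18, adjusted p = 0.00438). Eif5b, the GTPase of subunit joining, was at 85.3, 93.9 and 68.1 against 35.4, 41.6 and 45.4 (0.99 ± 0.18, adjusted p = 0.00984). Both were apart. Eif1ax and Eif1a encode eIF1A, which works with eIF1 in scanning. Eif1ax was at 151, 155 and 103 against 84.0, 89.5 and 69.0 (0.73 ± 0.21, adjusted p = 0.0372). Eif1a was at 12.9, 13.0 and 11.9 against 7.74, 7.06 and 8.61 (0.63 ± 0.13, adjusted p = 0.0155). Eif6, which keeps the ribosomal subunits from joining too early, was at 72.2, 78.4 and 58.7 against 41.7, 43.9 and 43.1 (0.68 ± 0.15, adjusted p = 0.0181). The groups did not overlap in these genes. Eif1ad (0.52, adjusted p = 0.0732), Eif1b (0.43, 0.054) and Eif5 (0.32, 0.328) were not called, and only Eif5 overlapped. Eif1ad (0.044) and Eif1b (0.0205) were called higher without C26 replicate 3, and Eif1b also without the 20 most abundant genes (0.0482). Without C26 replicate 1, C26 replicate 2 or Control replicate 1, calls were lost by Eif1ax (0.127, 0.115 and 0.0961), Eif6 (0.0734, 0.0612 and 0.0703) and Eif1a (0.065, 0.0552 and 0.062), and Eif1ax also lost its call without Control replicate 2 (0.0621) or Control replicate 3 (0.0793). With FPKM as deposited these 3 lost their calls too (0.112, 0.0818 and 0.0831), as did Eif1ax (0.198) and Eif6 (0.18) with quantile normalization, and Eif1ax with a pseudocount of 0.1 (0.0518) and without TMM (0.0632).

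The eEF1 genes, most of them for delivery of tRNA and its GTP exchange, had 2 of 6 higher, with a median of 0.16. This was 33.3%, against 19.4% of all listed genes. Their summed level was 4289, 4918 and 3352 against 2819, 3172 and 3953, which overlapped. Eef1a2, the muscle and nerve form of the tRNA carrier, was at 2581, 2689 and 2017 against 1457, 1837 and 1390 (0.64 ± 0.18, adjusted p = 0.0383). Eef1d, of its exchange factor, was at 329, 401 and 268 against 192, 218 and 236 (0.61 ± 0.19, adjusted p = 0.0473). Both had groups apart, but the calls lay near the threshold. That of Eef1a2 was lost with an intensity trend in the prior variance (0.0749). Both calls were lost with a pseudocount of 0.1 (0.0597 and 0.0704), without TMM (0.0582 and 0.0791) and with FPKM as deposited (0.111 and 0.196). They were also lost with quantile normalization (0.211 and 0.555) and with the replicate block (0.0539 and 0.0972). Without C26 replicate 1, C26 replicate 2, Control replicate 1 or Control replicate 3 they were lost as well (Eef1a2 0.128, 0.118, 0.122 and 0.0801, Eef1d 0.131, 0.13, 0.148 and 0.0557), and Eef1d was lost without Control replicate 2 (0.0976).

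Eef1a1, the form of most other tissues, was at 765, 1121 and 425 against 606, 548 and 1665, and its groups overlapped (-0.20 ± 0.52, adjusted p = 0.784). The high value belonged to Control replicate 3, the muscle with the B cell marker, and without it the difference was 0.31 (adjusted p = 0.583). Eef1a1 held 17.4% to 29.4% of the eEF1A sum in C26 muscles and 29.4%, 23.0% and 54.5% in control muscles (exact permutation test, p = 0.3). Of its transcript, 59.2% of 50-base windows occur elsewhere, mostly in pseudogenes. Eef1b2, Eef1g and Eef1e1 were 0.20, 0.12 and -0.11, and all overlapped. In all, 12 of the 63 genes share over 20% of these windows, Eef1g (64.3%), Eif3m (37.3%), Eif2s3x (36.2%) and Eif1 (31.6%) among them. Their values could take reads from the genes that share the windows. Not all of those are pseudogenes, as 15.9% of the Eif1 windows occur in Emd.

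Eef2, the translocase, was at 2277, 2451 and 1702 against 911, 1191 and 1078 (1.01 ± 0.19, adjusted p = 0.012). Its groups were apart, and the call was lost without C26 replicate 1 (0.0535) or Control replicate 1 (0.0514). Its inhibitory kinase Eef2k was -0.54 (adjusted p = 0.221) with overlapping groups, and was called lower without C26 replicate 3 (-0.77, 0.0454). eIF5A, which carries hypusine and helps ribosomes past stalls, did not change by the test: Eif5a was at 566, 665 and 508 against 508, 515 and 536 (0.15 ± 0.15, adjusted p = 0.454). Its rare relative Eif5a2 was at 0.337, 0.342 and 0.227 against 0.569, 0.491 and 0.852 (-0.33 ± 0.14, adjusted p = 0.12), apart but close to the low end of the table, and was called lower with a pseudocount of 0.1 (-0.86, 0.0406).

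Of the 4 methyltransferase genes that modify elongation factors, none was higher. Eef1akmt1 was lower, at 30.2, 26.8 and 40.6 against 53.2, 52.0 and 44.6 (-0.62 ± 0.19, adjusted p = 0.0461). The groups were apart, but the call was lost when any muscle other than C26 replicate 3 was left out (0.0514 to 0.142). With all muscles kept it was lost with a pseudocount of 0.1 (0.0664), without the 20 most abundant genes (0.0623) and with the replicate block (0.108). The other 3 ranged from -0.29 to 0.21.

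Factors whose mRNAs carry a 5′ terminal oligopyrimidine tract, a feature read by mTORC1 and Larp1, are known among these genes. Of 9 such members (Eef1a1, Eef1b2, Eef1d, Eef1g, Eef2, Eif3e, Eif3f, Eif3h and Eif4b), 5 were higher (55.6%, against 61.9% of the 63 genes and 19.4% of all listed genes) and none lower, with a median of 0.61.

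Among 38 other genes of the pathway, 16 were higher (42.1%, against 19.4% of all listed genes) and 1 lower, with a median of 0.44. The small lists within them lay between 33.3% and 50%, those of 2 of 6 and 3 of 9 nearest to that background. These genes were tested with all muscles and the reported scaling, and not under the alternatives. Of the eIF4E-binding proteins and kinases, 2 of 5 rose, the inhibitor Eif4ebp1 by 3.46 and the eIF4E kinase Mknk2 by 3.30. Eif4ebp1 was at 1946, 2013 and 1084 against 169, 172 and 107, so that per transcript length it exceeded Eif4e by 36.9, 33.9 and 17.0 times in C26 muscles and by 2.06, 1.89 and 1.6 times in control muscles. Of the mTORC1 and S6 kinase genes, 4 of 8 rose, namely Larp1 (1.19), Rheb (1.17), Rps6kb1 (1.05) and Mtor (0.85), and Mlst8 was lower (-0.65). Ppp1r15a, or GADD34, the inducible subunit of the phosphatase that reverses eIF2 alpha phosphorylation, rose by 2.59 (adjusted p = 0.000886). Its constitutive counterpart Ppp1r15b was 0.43 (0.0737).

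Of the poly(A)-binding proteins and partners, 3 of 6 rose, with the inhibitor Paip2b at 2.15, Pabpc4 at 0.98 and the activator Paip1 at 0.80, while Pabpn1 was -0.68 (adjusted p = 0.0527) with groups apart downwards. Of the termination and recycling genes, 2 of 6 rose, the release factor Etf1 by 1.55 and the recycling ATPase Abce1 by 1.40. Dhps, which starts the hypusine modification of eIF5A, rose by 1.07, and Dohh, which finishes it, was 0.12 (adjusted p = 0.455). In mitochondria, whose ribosomes use separate factors, 3 of 9 rose, Gfm1, Mtif3 (0.83) and Mrrf (0.83), while Tufm was 0.41 (0.0924) with groups apart upwards and Tsfm was -0.64 (0.101) with groups apart downwards. The genes that rose thus included both activators and inhibitors of translation.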

How the data were processed

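RNA of 6 gastrocnemius muscles was sequenced on the BGISEQ-500 in single reads of 50 bases. The authors removed low-quality, adaptor and rRNA reads, aligned the rest with bowtie2 and estimated the deposited FPKM by RSEM. The paper names GRCm38.p5, whereas the submitters' processing notes name mm9, HISAT2 2.0.4, Bowtie2 2.2.5 and RSEM 1.2.12, so the build of the files is not settled and no coordinates were taken from them. Strand was not given in the sources used here. The FPKM have 2 decimals and are above 0 in all 6 samples for all 13363 genes. Entrez IDs were given symbols for 13327 genes and none for 36. Counts were not analysed here. The spacing of low FPKM gave an estimated 13700000 to 16600000 reads in 5 samples and was unclear in C26 replicate 1, and whole reads could not be recovered, so no counting error is given.

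FPKM were rescaled to TPM, divided by unweighted TMM factors (trims of 30% of log ratios and 5% of mean levels, factors 0.903 to 1.08) and log2-transformed with a pseudocount of 1. Groups, taken from the labels, were compared with limma 3.58.1 in R 4.3.3 over all listed genes. The fold criterion asked for a fold above 4 besides an adjusted p under 0.05. Shares were compared by two-sided exact permutation tests (scipy 1.17.1). The scripts were tested on simulated data. The replicate numbers did not pair the muscles.

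Members and gene lists were chosen with earlier results of these data known. Values per muscle are given for called members among the 6 with the largest change in their role, for paralog families and for genes past the fold criterion, and other members by their fold change. Promoters are from RefSeq, build GRCm38.p6. Shared windows were counted between GENCODE transcripts of GRCm38. Alternatives were a pseudocount of 0.1, a mean TPM of at least 1, no TMM, FPKM as deposited, quantile normalization, scaling without the 20 most abundant genes, an intensity trend in the prior variance, the replicate block, and leaving out each muscle. Figures were drawn with matplotlib 3.10.9.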

Additional observations from a re-analysis of the deposited data

How the results depend on the processing

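None of the 41 called factor genes changed sign in the fits run, and 19 kept their calls under all 8 alternatives with all muscles. The matching number over all listed genes was not counted. The number of higher genes was 22 with quantile normalization and 27 with FPKM as deposited, against 39 as reported. Of all listed genes 16.8%, 12.6% and 19.4% were higher in these fits. The median change of the factor genes was 0.46 with quantile normalization and 0.51 with FPKM as deposited. Of all calls in the table, 57.3% were upwards as reported and 40.1% with FPKM as deposited, for which the median of all genes was -0.14 against -0.05, and for the factor genes the shares were 95.1% and 90%. The number past the fold criterion was 2 with a pseudocount of 0.1, which added Eif2ak2 (-2.22), and the number of lower genes was 1 without the 20 most abundant genes. The replicate numbers pair nothing in the labels, and same-numbered muscles deviated from their group means with r of -0.04, -0.08 and -0.11. With the replicate block 30 genes were higher and 1 was lower, and of all listed genes 13.8% were higher and 9.25% lower. Calls were lost there by Eef1akmt1 (adjusted p = 0.108), Eef1a2 (0.0539), Eef1d (0.0972), Eif3f (0.0661), Eif2s3y (0.0714), Eif1a (0.0574), Eif6 (0.0522), Eif2ak4 (0.0797), Eif4a3 (0.0567) and Eif4a1 (0.0504). Over the 6 fits without 1 muscle there were 15 to 43 higher genes, 0 to 3 lower genes and 1 to 2 genes past the fold criterion, with a median of 0.68 to 0.88 and a difference in summed share of 0.614 to 1.04 percentage points. The sign of some uncalled genes turned. With FPKM as deposited this held for Eef1g (-0.0938), Eef2kmt (-0.0686), Eif5a (-0.0666) and Eef1b2 (-0.0172). With quantile normalization it held for Eif2ak3 (0.0405), Eef1g (-0.22), Eif5a (-0.18), Eef1b2 (-0.21), Eif4g2 (-0.17), Eif2d (-0.0317) and Eif5 (-0.10), and without the 20 most abundant genes for Eif2b2 (0.0279). With a muscle left out the sign turned for Eef1e1 (-0.26 to 0.0596), Eef2kmt (-0.10 to 0.36), Eef1a1 (-0.52 to 0.31), Eif2b2 (-0.13 to 0.057), Eif3i (-0.41 to 0.11) and the share of Eif4a1 (-3.85 to 0.6 percentage points). The cause was not tested. Groups of 3 cannot reach p under 0.1 in the exact tests of shares. Without counts, the depth behind low values such as those of Eif5a2, the member with a mean TPM under 1, is not known.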

Other observations

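The proteins of the ribosome itself are background for the factors, and their genes were looked at after the factor values had been seen. Of 81 cytosolic ribosomal protein genes, 5 were higher in C26 muscles and 0 were lower by limma's adjusted p, among them Rpl10 (1.37 on the log2 scale), Rpl22l1 (1.36) and Rpl30 (0.85). At an unadjusted p under 0.05, 9 were higher and 1 was lower. Of all listed genes 19.4% were called higher. The median change of the ribosomal protein genes was 0.30. Their summed level was 67710, 78030 and 54970 normalised TPM in C26 muscles and 47300, 43520 and 74310 in control muscles, so the groups overlapped. The high control value belonged to replicate 3, the muscle that also had high Cd79b and Eef1a1. These genes were not refitted under the alternatives.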
